A study of Mus musculus with 6 samples.

Results

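Spondins, thrombospondins and other glycoproteins of the fibrotic matrix were read in the hearts of tail-suspended and sham mice. The set is 10 genes, Spon1, Spon2, Postn, Thbs1, Thbs2, Thbs4, Spp1, Tnc, Sparc and Fn1, out of 36163 names on the array. They were matched by the gene name that the array design gives each probe, which found 13 of 55681 probes. The 10 genes were chosen on the tail-suspension minus sham differences of these same arrays, which were already known. Those differences are therefore given as a description. Where one is said to be past the threshold of the fit over all probes, that only places it among all probes. It is no independent evidence, no p is given for any of the 10, and nothing is drawn from how many of them moved.

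Hanging a mouse by its tail unloads the hindlimbs and is a ground model of weightlessness. Male C57BL/6 mice, 10 weeks old at the start, spent 28 days in tail-suspension, while sham mice were kept and fed beside them. The labels also give 11 weeks as the age of every animal, and the methods of the study give an age of 2 months. Neither group carried a transgene or received a drug. Cy3-labelled RNA of cardiac muscle from 3 mice per group was hybridised to 6 1-colour Agilent arrays, 1 mouse per array.

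These genes code for secreted proteins that sit in the matrix without forming its main fibres. They bind collagens, integrins and growth factors, and many are known to rise when fibroblasts are activated after infarction or pressure overload. Spondins carry thrombospondin type I repeats, thrombospondins are large calcium-binding oligomers, and periostin, osteopontin (Spp1), tenascin-C, Sparc and fibronectin take part in collagen assembly, cell adhesion and wound repair. Fibroblasts make most of them, and osteopontin is also made by macrophages.

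The values come from DNA probes of 60 bases. The probe sequences of the genes on which the description turns are shown so that each value can be tied to what was hybridised. They are written 5′ to 3′ in lower case as the array files give them, whole for Thbs2 and Spp1. For Spon2 and for both probes of Sparc the first 30 of the 60 bases are shown.
Spon2: ccacaggaggaacaaacgaagaggggcagt
Thbs2: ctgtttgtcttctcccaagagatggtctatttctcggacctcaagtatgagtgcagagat
Sparc, brighter probe: ggctgttccgcctggggataaggtgctaac
Sparc, dimmer probe: acagcaatgtgaagagcttgacaagtcttt
Spp1: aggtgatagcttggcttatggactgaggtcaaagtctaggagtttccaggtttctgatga

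On build mm9, the Spon2 probe lies at chr5:33556617-33556676 on the minus strand. The Thbs2 probe spans chr17:14804526-14805789 on the minus strand, a stretch of genome longer than the probe, so its bases come from more than 1 exon. The Sparc probes lie at chr11:55208939-55208998 (brighter) and chr11:55208003-55208061 (dimmer) on the minus strand, and the Spp1 probe lies at chr5:104868502-104868561 on the plus strand. Counted from the start of the transcript that the array files name, these probes begin at base 1727 for Spon2, 3843 for Thbs2, 1303 and 2240 for the brighter and dimmer probes of Sparc, and 524 for Spp1. The files do not give the bounds of the coding region. No probe of the 10 genes shared a run of 20 bases with any other probe of the array, and the longest run that probes of different members had in common was 10 bases.

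A level is the log2 processed intensity of a probe minus the 75th percentile of its array, which lay between 300.01 and 375.04. A difference is the mean level of the 3 tail-suspension arrays minus that of the 3 sham arrays, with its standard error (SE) from limma. The test covered the 28032 probes with a signal well above background in all 3 hearts of either group. A gene takes the values of its brightest tested probe, and "past the threshold" means a limma p under 0.05 after Benjamini-Hochberg adjustment over all tested probes. Of the 14200 genes tested, 10.3% were past it in the higher direction and 11.2% in the lower. In 21.7% of genes every tail-suspension array was above every sham array, and in 25.8% every one was below. The median log2 difference over all 14200 was -0.03. All 8 cardiomyocyte marker genes were well above background on all arrays. All 6 arrays lay on 1 slide. Row 1 of it held all sham arrays together with tail-suspension replicate 1, and row 2 held tail-suspension replicates 2 and 3, so the difference of replicate 1 from the sham mean is the only one within a row.

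Of the 10 genes, 8 had a tested probe. Spp1 and Tnc had none. Thbs2 was past the threshold and higher, Spon2 and Sparc were past it and lower, and Spon1, Postn, Thbs1, Thbs4 and Fn1 were not past it. The groups did not overlap for Thbs2, Spon2, Sparc and Fn1 and overlapped for the other 4 tested genes. Among the tail-suspended hearts, Spon1, Postn, Thbs1, Thbs4, Sparc and Fn1 were lowest in replicate 2, and Spon2 was highest there. The median log2 difference was -0.29 over the 8 tested genes. Because these differences chose the set, the counts and this median are read against nothing.

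**Figure D1:**
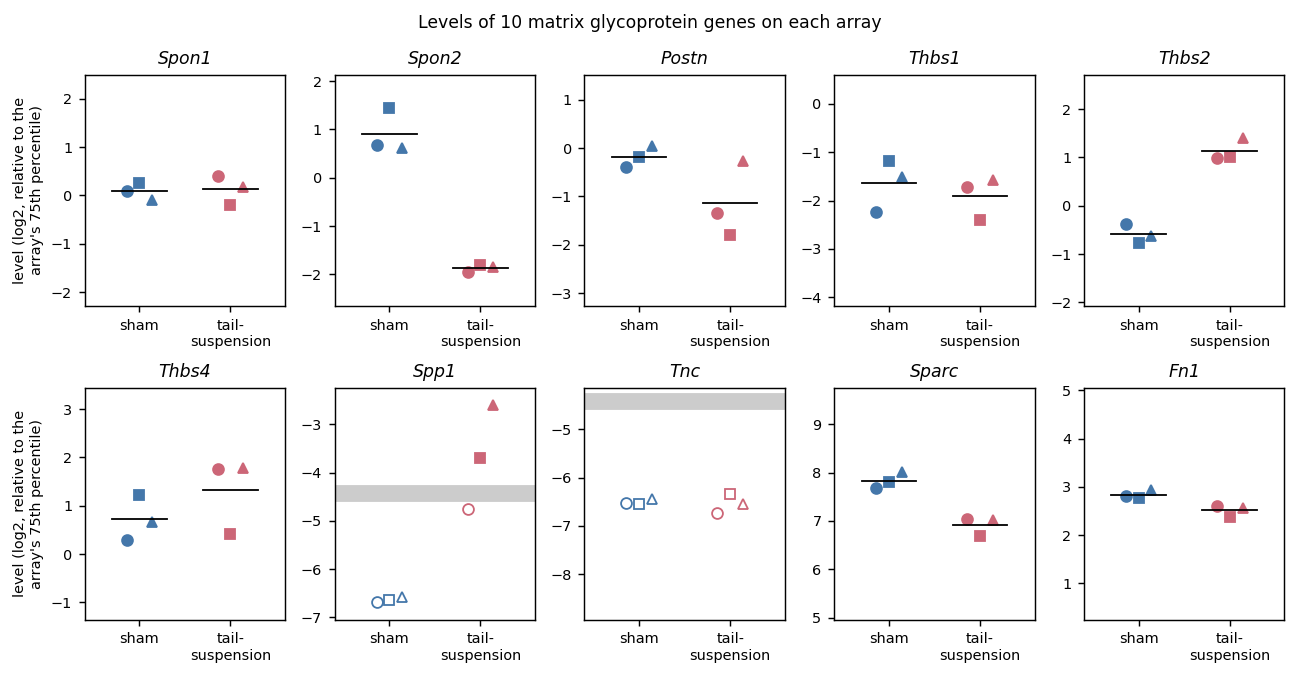
Level of each of the 10 genes on each array by its brightest probe, as log2 relative to the 75th percentile of the array, with every panel spanning 4.8 log2 units. Circles, squares and triangles are replicates 1, 2 and 3, filled where the probe was well above background, lines are means of groups with every array well above background, and the grey band is the range over arrays of the lowest level well above background. Spon2 falls and Thbs2 rises with a wide gap between groups, and Spp1 leaves the background in tail-suspension replicates 2 and 3 only.

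Among the spondins, Spon2 fell and Spon1 was not past the threshold. Spon2 codes for mindin, a matrix protein that binds integrins and bacterial surfaces and is known for its part in innate immunity. The level of Spon2 was 0.67, 1.43 and 0.62 in sham replicates 1, 2 and 3 and -1.96, -1.81 and -1.85 in the tail-suspension replicates. The lowest sham heart was well above the highest tail-suspended one, and the 3 tail-suspended hearts lay close together. Processed intensities of Spon2 were 508, 856 and 461 in sham and 86.7, 106.8 and 103.3 in tail-suspended hearts, all well above background. The difference was -2.78 (SE 0.22, n = 3 per group), a level 6.89-fold lower. Within row 1 of the slide the difference was -2.87. Ordered from the most negative difference upward, Spon2 ranked 14 among the 14200 tested genes. The standard deviation (SD) of the Spon2 level was 0.46 between sham hearts, larger than in 96.6% of genes, and 0.08 between tail-suspended hearts, larger than in 25.2%. The spread of Spon2 thus lay almost wholly in the sham group, where replicate 2 was the brightest.

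Spon1 codes for F-spondin, a guidance molecule of the nervous system that binds the amyloid precursor protein. The brighter of its probes, at chr7:121184084-121184143, gave levels of 0.09, 0.27 and -0.09 in sham and 0.41, -0.21 and 0.17 in tail-suspended hearts. The groups overlapped, and the difference was 0.04 (SE 0.18). The other Spon1 probe, at chr7:121073331-121073390, had a difference of -0.22 (SE 0.27) with intensities between 31.2 and 67.0. The probes of Spon1 thus pointed in opposite directions, each by less than its SE. Its sign also turned under 3 of 19 other ways to process the arrays, with differences from -0.10 to 0.32.

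Of the thrombospondins, Thbs2 rose, Thbs1 and Thbs4 were not past the threshold, and Thbs3, which is outside the set of 10, rose. Thrombospondin-2, the product of Thbs2, restrains vessel growth and clears matrix metalloproteinase 2 through the receptor Lrp1. Its level was -0.38, -0.77 and -0.63 in sham and 0.98, 1.01 and 1.40 in tail-suspended hearts. Every tail-suspended heart was above every sham heart by more than the whole range within either group. Intensities of Thbs2 were 245, 186 and 194 in sham and 667, 754 and 987 in tail-suspended hearts. The difference was 1.72 (SE 0.16, n = 3 per group), a level 3.30-fold higher, and it was 1.57 within row 1 of the slide. Ordered from the largest difference downward, Thbs2 ranked 142 among the 14200 tested genes.

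Thrombospondin-1, the product of Thbs1, is known to activate latent TGF-beta. The Thbs1 probe at chr2:117952585-117952644 gave levels of -2.24, -1.17 and -1.51 in sham and -1.72, -2.41 and -1.58 in tail-suspended hearts. Both groups covered nearly the same range. The difference was -0.26 (SE 0.32), and the SD between sham hearts, 0.54, was larger than in 98.1% of genes. Thrombospondin-4, the product of Thbs4, is known to rise in the overloaded heart. The Thbs4 probe at chr13:93521565-93521624 gave levels of 0.30, 1.22 and 0.66 in sham and 1.76, 0.42 and 1.78 in tail-suspended hearts. Tail-suspension replicates 1 and 3 were above every sham heart, and replicate 2 was inside the sham range. The difference was 0.59 (SE 0.41). Without tail-suspension replicate 2 it was 1.04 and past the threshold, so 1 array decided whether Thbs4 was called. The SD of Thbs4 between tail-suspended hearts, 0.78, was larger than in 98.4% of genes.

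Thbs3, whose product is a pentamer like those of Thbs4 and Comp, was not among the 10. The brighter Thbs3 probe had intensities of 417, 439 and 487 in sham and 761, 780 and 1289 in tail-suspended hearts, with no overlap. The difference was 0.82 (SE 0.20, limma adjusted p = 0.036), and the other Thbs3 probe was past the threshold as well, with a difference of 0.91. It was past the threshold under 11 of the 19 alternatives. Comp, a thrombospondin of cartilage and tendon, had a difference of -0.06 (SE 0.37, limma adjusted p = 0.92).

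**Figure D2:**
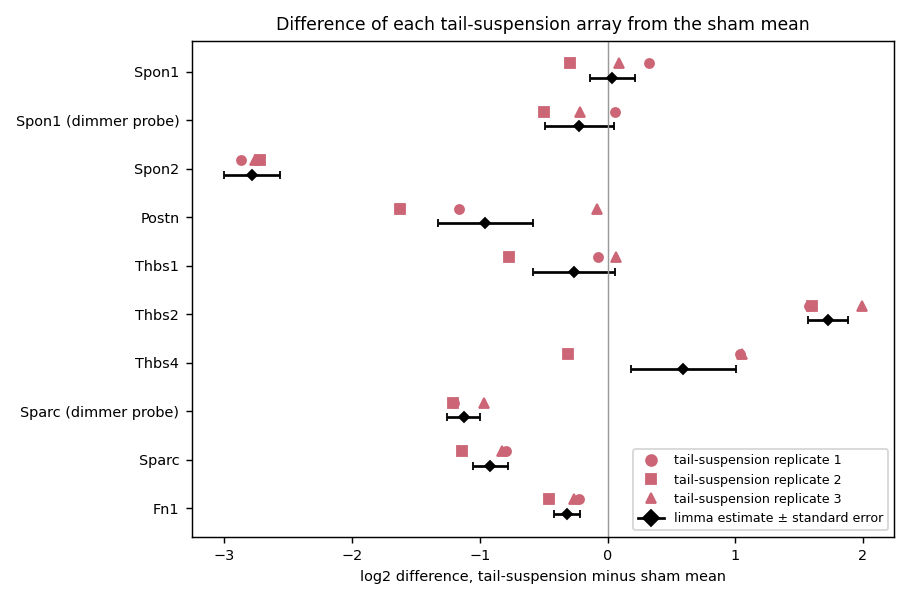
Log2 difference of each tail-suspension array from the sham mean (circles, squares and triangles for replicates 1, 2 and 3) and the limma estimate with its standard error (diamonds) for the 10 tested probes. For Spon2, Thbs2, Sparc and Fn1 the 3 arrays lie together on one side of 0, and for Postn and Thbs4 a single array, replicate 3 and replicate 2 in that order, lies apart from the others.

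Sparc fell by both of its probes. The product of Sparc binds collagen and takes part in the processing of procollagen into fibrils. The brighter probe gave levels of 7.68, 7.81 and 8.02 in sham and 7.04, 6.70 and 7.01 in tail-suspended hearts. Its intensities were between 65445 and 77634 in sham and between 38940 and 48220 in tail-suspended hearts, with no saturated spot. The difference was -0.92 (SE 0.14), a level 1.89-fold lower. The dimmer probe gave levels of 2.43, 2.45 and 2.77 in sham and 1.35, 1.34 and 1.58 in tail-suspended hearts, a difference of -1.13 (SE 0.13) and a level 2.18-fold lower. For both probes every tail-suspended heart was below every sham heart. Within row 1 of the slide the differences were -0.80 and -1.20. With the slide row as a block in the fit the difference of the brighter probe was again -0.80 but no longer past the threshold.

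Periostin (Postn), a marker of activated fibroblasts that helps to cross-link collagen, was uneven between the tail-suspended hearts. The Postn probe at chr3:54194840-54194899 gave levels of -0.39, -0.18 and 0.05 in sham and -1.34, -1.80 and -0.26 in tail-suspended hearts. Replicates 1 and 2 were below every sham heart, and replicate 3 was inside the sham range, with an intensity of 312 against 243, 279 and 311 in sham. The difference was -0.96 (SE 0.37) and did not pass the threshold. Without tail-suspension replicate 3 it was -1.39 and past the threshold. The SD between tail-suspended hearts, 0.79, was larger than in 98.5% of genes, whereas the SD between sham hearts was 0.22.

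Fibronectin (Fn1), the adhesive glycoprotein on which collagen fibrils are laid down, was slightly lower in every tail-suspended heart. The Fn1 probe at chr1:71632116-71632175 gave levels of 2.81, 2.76 and 2.93 in sham and 2.61, 2.37 and 2.57 in tail-suspended hearts. The groups did not overlap, yet the difference was only -0.32 (SE 0.10) and did not pass the threshold. It passed under 1 of 19 alternatives, an intensity trend with robust variance, with the same difference.

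Osteopontin (Spp1), a phosphoprotein that binds integrins and Cd44, was not well above background in any sham heart. Intensities of Spp1 were 3.10, 3.18 and 3.14 in sham and 12.6, 28.7 and 61.4 in tail-suspended hearts. The probe was well above background in tail-suspension replicates 2 and 3 and not in replicate 1, so it was left out of the test and no fold is given. Tnc codes for tenascin-C, which is made in the embryonic heart and again after injury. Both Tnc probes, at chr4:63674248-63675011 and chr4:63643728-63643787, were not well above background on any array, with intensities between 3.04 and 4.61, so no level or fold was read for Tnc.

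In a whole heart, fewer cells of a type and less RNA per cell cannot be told apart. Markers of other cells moved beside these genes. Of the neutrophil markers, 4 of the 5 tested were higher and none lower. Among them, Mpo and Retnlg were not well above background in any sham heart and entered the test through the tail-suspended hearts alone. Summed levels of the 5 (on a linear scale, relative to the 75th percentile) were 144 to 172 in sham and 207 to 236 in tail-suspended hearts. Most of that sum came from Csf3r, which was not past the threshold (difference 0.29, limma adjusted p = 0.092). S100a9 had a difference of 4.61 (SE 0.61, limma adjusted p = 0.0066), and its level was 5.23 in tail-suspension replicate 1, 2.61 in replicate 2 and 3.68 in replicate 3. Spp1 was lowest in replicate 1 and highest in replicate 3. Of 7 tested macrophage markers, Cd163 alone was past the threshold, higher by at least 3.38-fold. It too entered the test through the tail-suspended hearts alone. The median difference of the 7 was 0.61, and Fcgr1 had the lowest, -0.20. C1qa (difference 0.75, limma adjusted p = 0.059) did not pass, though every tail-suspended heart was above every sham heart. The macrophage sums were 29.3 to 38.9 in sham and 43.1, 33.1 and 51.1 in tail-suspension replicates 1, 2 and 3. Of 8 fibroblast markers, Dpep1 was higher and none lower. Their sums were 356 to 390 in sham and 403 to 497 in tail-suspended hearts and came mostly from Dcn and Gsn. The median level over the 8 was 2.89 to 3.08 in sham and 1.76 to 2.87 in tail-suspended hearts, whereas the median of their differences was 0.08. In every tail-suspended heart, 2 of the 8 were above every sham heart and 2 were below. Those above were Dpep1 and Dcn, and Dcn (difference 0.34) did not pass the threshold. Those below were Col1a1 and Lum, neither past the threshold (differences -0.95 and -0.64).

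Among the other marker genes tested, 2 of 8 smooth muscle and pericyte markers were past the threshold and lower and none higher. The median difference of these 8 was 0.20, however. In every tail-suspended heart, 2 of them were above every sham heart and 2 were below. Of 8 endothelial markers, 3 were lower and 1 higher. Of 8 cardiomyocyte markers 1, Actc1, was lower with a difference of -0.33. Myh6, also on that list, had a difference of -0.09 by its brightest probe, while its other tested probe was past the threshold at -1.48. Cardiomyocyte sums were 4775 to 5102 in sham and 4335 to 4486 in tail-suspended hearts. Of 5 erythroid markers Hba-a1 was lower (limma adjusted p = 0.0496), with sums of 430 to 696 in sham and at most 345 in every tail-suspended heart. Mesothelial, adipocyte and skeletal muscle lists had 1, 1 and 2 tested genes, none past the threshold. The part of any of these cells in the differences of the 10 genes was not tested.

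Relatives of the 10 genes were read from a list of 18, genes of the thrombospondin, tenascin, Sparc and osteopontin families, SCO-spondin (Sspo) and the periostin relative Tgfbi. This list and the next 2 were written with earlier results of these data known, so nothing is drawn from how many genes passed. Over all 14200 tested genes, 10.3% were past the threshold and higher and 11.2% past it and lower. Of the 11 relatives with a tested probe, 2 were higher, 2 lower and 7 not past the threshold, and the median difference was -0.06. With the slide row as a block, Spock2 alone of the 4 passed the threshold. Besides Thbs3, the gene that rose was Spock2, a testican of the Sparc family that carries heparan sulfate chains. The Spock2 intensities were 61.8, 46.4 and 41.6 in sham and 229.7, 250.9 and 350.0 in tail-suspended hearts. The difference was 2.25 (SE 0.18, limma adjusted p = 0.0022), opposite in sign to that of Sparc, and it was past the threshold under all 19 alternatives. Smoc2, another calcium-binding relative of Sparc, fell in every tail-suspended heart below every sham heart, with a difference of -0.87 (SE 0.12, limma adjusted p = 0.0078). Tnxb, the tenascin of skin and tendon, had a difference of -0.41 (SE 0.08, limma adjusted p = 0.021). Smoc2 and Tnxb were past the threshold under 18 and 12 of the 19 alternatives. Sparcl1, the nearest relative of Sparc, had a difference of -0.32 (SE 0.11, limma adjusted p = 0.076) without overlap of the groups, and Fstl1 one of -0.51 (SE 0.23, limma adjusted p = 0.15). The relatives that code for bone and tooth phosphoproteins (Ibsp, Dmp1 and Dspp), the tenascins Tnn and Tnr, and Spock1 and Spock3 were not well above background on any array.

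**Figure D3:**
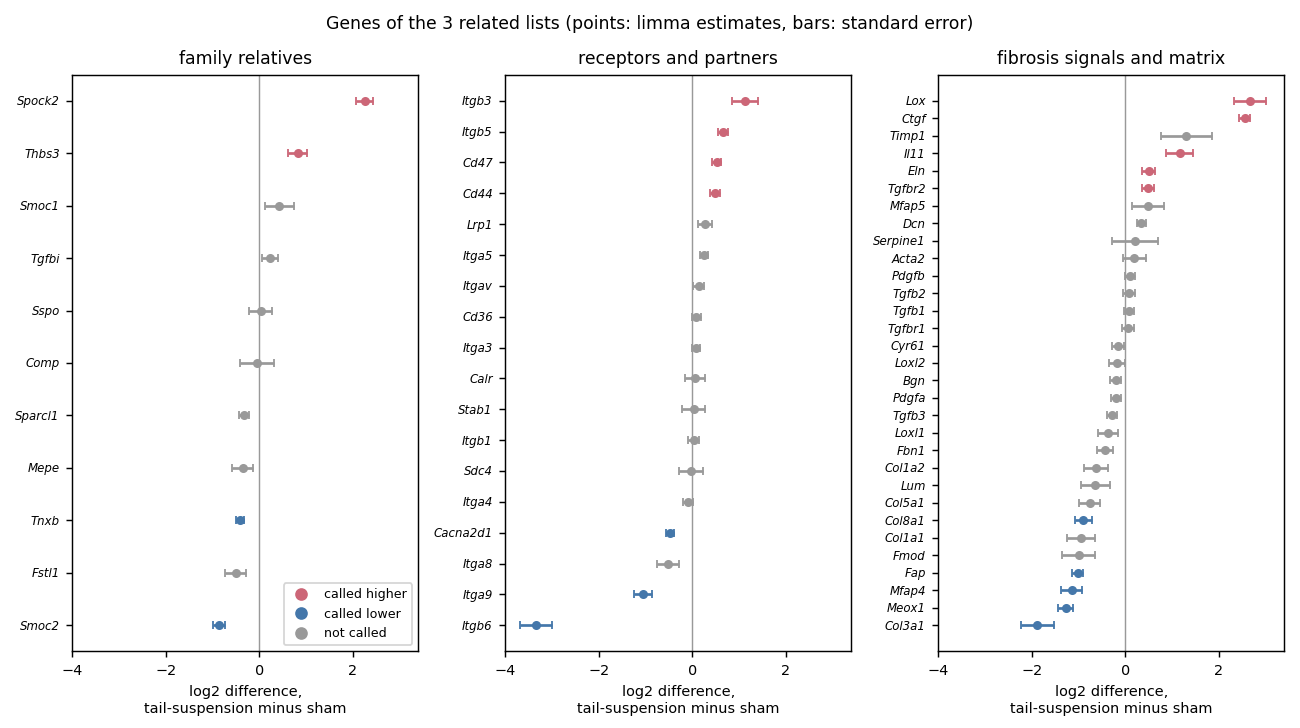
Log2 difference (tail-suspension minus sham) with its standard error for the tested genes of the lists of relatives, receptors and partners, and fibrosis signals and matrix, ordered within each list. Red points were past the adjusted threshold and higher, blue points past it and lower, and grey points not past it; each list holds genes on both sides of 0.

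Receptors and partners of these proteins were read from a list of 19, of which 18 were tested. Of them 4 were higher, 3 lower and 11 not past the threshold, with a median difference of 0.06. With the slide row as a block limma called 0 of the 18, and 8 had an unadjusted p under 0.05, so each of the 7 calls below is lost in that fit. The integrin chain genes went both ways. Itgb3, which pairs with Itgav to bind osteopontin, periostin and fibronectin, had a difference of 1.13 (SE 0.27, limma adjusted p = 0.034). Itgb5, another partner of Itgav, had one of 0.65 (SE 0.11, limma adjusted p = 0.012). Itgb6, the epithelial partner of Itgav, fell from intensities of 997, 907 and 821 in sham to 123, 153 and 59.2 in tail-suspended hearts, a difference of -3.34 (SE 0.34, limma adjusted p = 0.0032) and a level 10.1-fold lower. The other Itgb6 probe was lower too, by a difference of -3.92. Itga9, whose product binds tenascin-C and osteopontin, had a difference of -1.06 (SE 0.19, limma adjusted p = 0.016). Over the 19 alternatives Itgb3 was past the threshold under 10, Itgb5 under 17, Itgb6 under 18 and Itga9 under 14. Itgav itself had a difference of 0.14 (SE 0.12, limma adjusted p = 0.45).

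Cd47 and Cd44, receptors that are not integrins, were higher. Cd47, the receptor of the thrombospondin C-terminus, had a difference of 0.52 (SE 0.10, limma adjusted p = 0.021), with 1 of 2 probes past the threshold. Cd44, which binds hyaluronan and osteopontin, had one of 0.48 (SE 0.10, limma adjusted p = 0.023), and the other of its 2 tested probes, also past the threshold, had one of 1.06. Cacna2d1, a calcium channel subunit that binds thrombospondins, was lower by a difference of -0.48 (SE 0.09, limma adjusted p = 0.018), with 1 of 2 probes past the threshold. Cd47, Cd44 and Cacna2d1 were past the threshold under 12, 11 and 12 of the 19 alternatives. Cd36, the receptor of the thrombospondin repeats, had a difference of 0.08 (SE 0.10, limma adjusted p = 0.58), and Lrp1, which takes up thrombospondin-2, one of 0.27 (SE 0.15, limma adjusted p = 0.24). Lrp8, a receptor of F-spondin, was not well above background on any array.

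Fibrosis signals and structural matrix were read from a list of 32, of which 31 were tested, with 5 higher, 5 lower and 21 not past the threshold and a median difference of -0.18. With the slide row as a block, Ctgf, Fap and Mfap4 alone of these 10 passed the threshold. On the higher side, Ctgf, a matricellular partner of TGF-beta, rose from intensities of 4687, 4329 and 4284 in sham to 29691, 26820 and 34481 in tail-suspended hearts. The difference was 2.55 (SE 0.12, limma adjusted p = 0.00067), a level 5.87-fold higher. Lox, the collagen and elastin cross-linking enzyme, was not well above background in sham hearts and was at least 4.98-fold higher in tail-suspended ones. It entered the test through the tail-suspended hearts alone. Its calls, here and under the alternatives, rest on sham values that were not well above background. After normexp background correction, which adds an offset of 50 to every intensity, the Lox difference was 0.79 and past the threshold, a smaller change than that bound. In that fit the difference of Il11 was 0.23 and that of Spock2 was 1.26. Il11, a profibrotic cytokine, had a difference of 1.16 (SE 0.29, limma adjusted p = 0.035), Tgfbr2 one of 0.49 (SE 0.13, limma adjusted p = 0.041) and Eln, the elastin gene, one of 0.50 (SE 0.14, limma adjusted p = 0.046). Ctgf was past the threshold under all 19 alternatives, Lox under 17 of the 18 that gave it a value, and Il11, Tgfbr2 and Eln under 10, 10 and 9 of 19.

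On the lower side of that list stood Col3a1, the chain of collagen III, with a difference of -1.88 (SE 0.36, limma adjusted p = 0.017), and Col8a1, a short-chain collagen of vessels, with one of -0.91 (SE 0.18, limma adjusted p = 0.020). Fap, a protease of activated fibroblasts, had a difference of -1.02 (SE 0.12, limma adjusted p = 0.0048). Meox1, a transcription factor of activated fibroblasts, had one of -1.28 (SE 0.16, limma adjusted p = 0.0057), and Mfap4, a microfibril glycoprotein, one of -1.15 (SE 0.23, limma adjusted p = 0.020). Over the 19 alternatives Col3a1 was past the threshold under 14, Col8a1 under 13, Fap under 19, Meox1 under 18 and Mfap4 under 14. Col1a1 had a difference of -0.95 (SE 0.30, limma adjusted p = 0.065) without overlap of the groups, and Timp1 one of 1.30 (SE 0.55, limma adjusted p = 0.14) with overlap. Genes for matrix proteins and their modifiers thus stood on both sides, as in the set of 10.

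The 3 genes past the threshold kept their direction under every other way tried to process the arrays. All of these ways reuse the arrays on which the set was chosen, so they bear on the processing alone. Spon2 lay between -2.95 and -2.14 and Thbs2 between 1.47 and 1.83 over the 19 alternatives, and both were past the threshold in all 19. Sparc lay between -1.02 and -0.80 and was past it in 18. Postn lay between -1.39 and -0.62, Thbs4 between 0.36 and 1.04, and Thbs1 between -0.56 and -0.01, each with an unchanged sign. For these 3 genes both ends of the range came from leaving out 1 array.

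**Figure D4:**
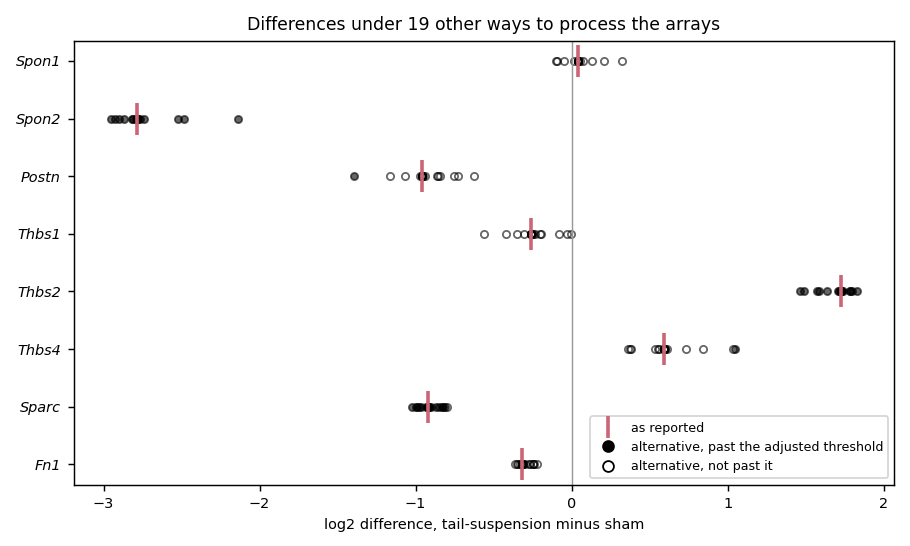
Log2 difference (tail-suspension minus sham) of the 8 tested genes as reported (red bars) and under 19 alternatives (circles, filled where the gene passed the adjusted threshold). Spon2, Thbs2 and Sparc stay clear of 0, and Spon1 lies on both sides of it.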

How the data were processed

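Cy3-labelled RNA from 3 sham and 3 tail-suspended mouse hearts was read on 1-colour Agilent arrays. The authors deposited scanner files from Agilent Feature Extraction 10.7.1.1 (per the labels), with a processed intensity per spot after background correction. A deposited table of log2 values for all 6 arrays correlated above 0.999 with the log2 processed intensities. The sorted columns of that table differed by at most 0.117 and had medians of 4.33. No normalization is named in the methods.

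The log2 processed intensity minus the 75th percentile of each array was computed in R 4.3.3. Control spots and outlier spots (146 to 212 per array) were left out, and spots of a probe were averaged. Between 50.9% and 53.4% of probes were well above background. Probes reaching this in at least 50% of their spots on every array of a group were tested with limma 3.58.1 without covariates. The steps were tested on simulated data. Each of the 3 arrays per group is 1 mouse, and this number limits the precision: an exact two-sided permutation test of 3 against 3 cannot go below 0.1.

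The 10 genes, the lists and the alternatives were chosen with earlier results of these data known. Every list gene past the threshold could be named, and up to 4 others per list, those with the largest absolute difference. Outside this rule, Comp, Cd36, the genes not above background and the named markers were added after their values were seen, for their roles. Of 36163 design names, 21938 matched RefSeq (GRCm38.p6), and genes were counted over these. Coordinates are those of the files (mm9). A bound ("at least") sets the brighter group's mean level against, per array, the higher of the lowest level well above background and the probe's own level.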

Additional observations from a re-analysis of the deposited data

How the results depend on the processing

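Over all probes, 5675 passed the adjusted threshold. The count was 1843 without a filter on dim probes, 2659 by the methods' t-test and 8805 with array weights. A replicate block left 3157 (1725 higher, 1432 lower), and the slide row as a block left 501 (324 higher, 177 lower). Leaving out 1 array gave 1769 (without sham replicate 2) to 5577. Samples with the same replicate number did not deviate together (correlations of -0.02, -0.02 and 0.05), so they share only a number, and the block left the count of the 10 genes at 3. That count was 3 to 4 when an array was left out, 4 without the filter (Spp1 added, although its sham values are not well above background) and 2 with the slide row (Sparc lost). Of relatives, 4 passed, against 2 without the filter, 1 with the slide row and 2 to 4 with an array left out. Of receptors and partners, 7 passed, against 2 without the filter, 4 by the methods' t-test, 4 with the replicate block and 1 to 8 with an array left out. With the slide row as a block limma called 0 of them, and 8 of 18 had an unadjusted p under 0.05. Of fibrosis signals and matrix, 10 passed, against 4 without the filter, 4 by the methods' t-test, 3 with the slide row and 4 to 12 with an array left out. Of the 24 genes of the set and these 3 lists past the threshold, 17 lost the call with the slide row, 14 without sham replicate 2, 10 without sham replicate 1, 10 without tail-suspension replicate 1, 10 without tail-suspension replicate 3, 5 without sham replicate 3 and 1 without tail-suspension replicate 2. None of the 24 changed sign. Fewer samples remain where an array was left out. Row 2 held no sham array, so the fit with the slide row as a block sets tail-suspension replicate 1 alone against the 3 sham arrays. The cause of the other losses was not tested. A block on the slide itself could not be run with 1 slide. Scaling moved the median difference of all probes to no lower than -0.06 and no higher than 0.01. Probes not well above background, such as those of Tnc and of Spp1 in sham, are known only to lie under a bound.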
